A study of Mus musculus with 24 samples.

Results

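The 30 genes described here are genes of the fat cell, measured in mammary tumours by bulk RNA sequencing. They were taken as a list of symbols and looked up among the 46318 gene IDs of each count file, and all 30 were found. Of these, 28 passed the filter on low counts and 2, Aqp7 and Ucp1, were fitted in an extended model that added them back. The tumours arose in MMTV-PyMT mice, in which the promoter of the mouse mammary tumour virus drives the polyoma middle T oncogene in mammary epithelium, so that tumours form spontaneously in the fat pad. All libraries carry that transgene. The labels name 12 libraries as knockout (KO 1 to KO 12) for Nr0b2, an orphan nuclear receptor also called SHP that represses bile acid synthesis genes, from NR0B2-/- PyMT+ mice, and 12 as wild type (WT 13 to WT 24), from NR0B2+/+ PyMT+ mice. Tumours were taken at a volume of 2000 mm3. Age, sex, litter and batch were not stated in the sources used here, nor was whether each tumour came from a separate mouse. The p-values between the labels set a difference against the scatter of these libraries, which may in part be technical. Whether any p-value here holds over separate animals is not known.

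Adipocytes store triglyceride in a single large droplet coated by perilipins and CIDE proteins, take up fatty acids released by lipoprotein lipase, and release them again through a chain of lipases under the control of insulin and catecholamines. They also secrete hormones, the adipokines, of which adiponectin and leptin are the best known. The mammary gland of the mouse is embedded in such a fat pad, and a tumour that grows in it can be excised with fat at its margin or in its stroma. Mouse fat pads also hold brown-like adipocytes, which burn fuel through the uncoupling protein UCP1.

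Library totals ran from 18789250 to 38022182 counted reads, so that 3 reads corresponded to between 0.0789 and 0.160 CPM, reads scaled to the library total. The targeted gene went against the labels: Nr0b2 had 182 reads in all over the 12 libraries labelled KO, each of which held some, and 1 read over the 12 labelled WT. Where in the gene those reads lie cannot be seen from counts per gene. Directions below are those of the labels, not of a measured loss. Library KO 11 stood apart. Besides the adipocyte genes it held the highest sums of skeletal muscle, B cell, T cell, brown fat, macrophage and fibroblast markers of all 24 libraries, and changes that moved most without it are given with and without it.

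Adipocyte RNA was found in every tumour, at levels that differed widely between tumours and overlapped between the labels. Adipoq had at least 1 read in each of the 24 libraries. The CPM of the 30 genes summed to between 848 and 8880 in the libraries labelled KO (median 1331) and to between 450.1 and 2495 in those labelled WT (median 1084). This sum is not a measure of adipocyte RNA alone, because some members varied far less between tumours than Adipoq. In WT 23, where the sum was lowest, Pnpla2 stood at 82.6 CPM and Cebpa at 49.7 CPM, against 0.646 CPM of Adipoq. KO 11 held the highest sum of the libraries labelled KO and WT 16 that of the libraries labelled WT. In a bulk sample, fewer adipocytes and less RNA per adipocyte cannot be told apart.

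No adipocyte gene passed an adjusted p of 0.05 between the labels. In edgeR's quasi-likelihood test over 15820 genes, 50 were called (0.316%), 28 with a higher and 22 with a lower level under the label KO, and 0 of the 28 tested adipocyte genes were among them. None was called by DESeq2 either, which called 418 genes in all (2.64%). At an unadjusted p under 0.05, 9 of the 28 were counted, all higher in the libraries labelled KO, where 18.9% of all tested genes were counted, 1584 higher and 1408 lower. Of the 28, 26 had a positive log2 change, against 51.3% of all tested genes, and the median log2 change was 0.88, against 0.0075 over all genes. In none of the 30 genes were the ranges of the 2 labels apart, which was the case for 0.0506% of tested genes.

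Much of that median rested on KO 11. This library was the highest of all 24 libraries for 28 of the 30 genes, the exceptions being Ghr and Cebpa, and its removal moved 28 of the 30 changes further than the removal of any other library. Without it the median log2 change of the 28 tested genes was 0.33, with 23 positive and 5 negative, and 1 gene, Adig, had an unadjusted p under 0.05, as did 17.2% of all tested genes. Over all genes, 15 of 15882 (0.0944%) were then called.

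**Figure D1:**
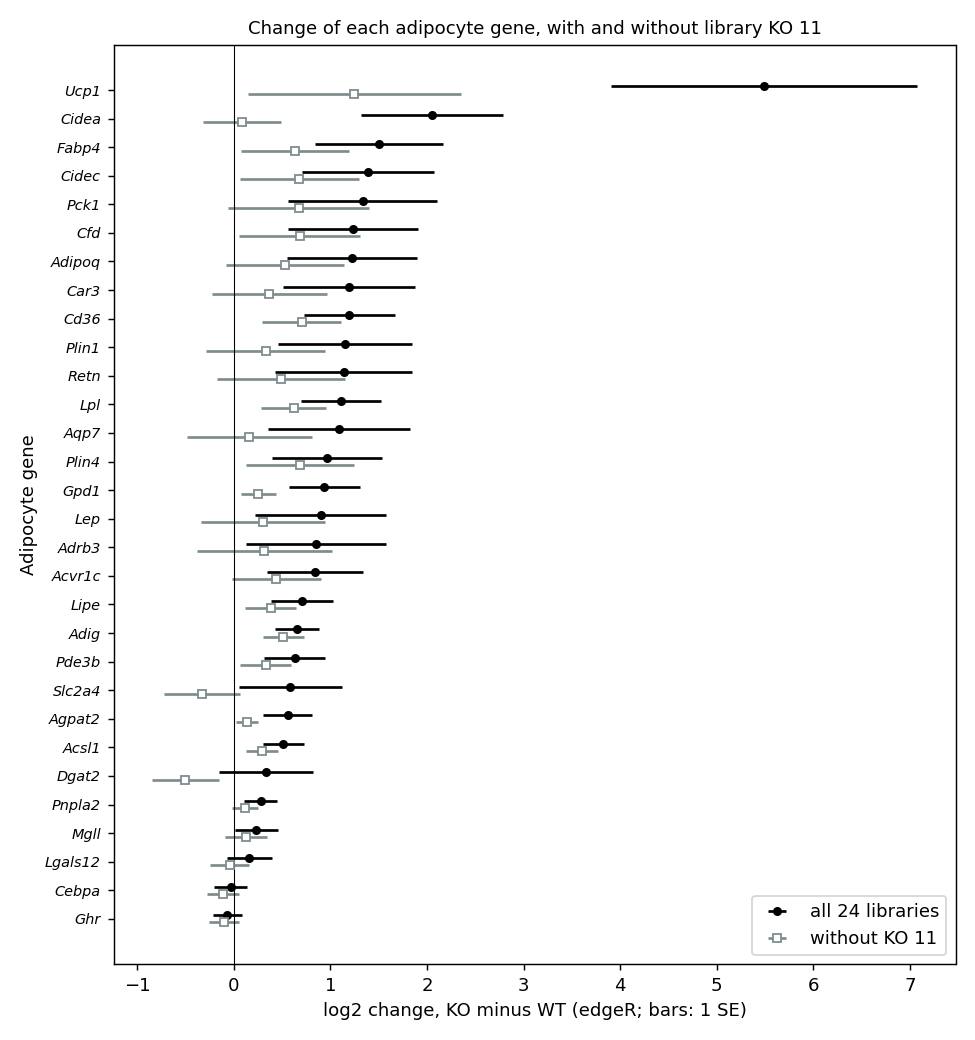
Log2 change of each of the 30 adipocyte genes, libraries labelled KO minus libraries labelled WT, from edgeR (points, with bars of 1 SE), with all 24 libraries (black) and without KO 11 (grey squares). The median over the 28 tested genes is 0.88 with all libraries and 0.33 without KO 11; Ucp1 is at 5.49 with all libraries and 1.25 without KO 11, and Cidea at 2.05 and 0.084.

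The adipokines Adipoq, Lep, Retn and Cfd were all measured, with log2 changes from 0.90 to 1.23 and adjusted p from 0.313 to 0.473 in edgeR, and changes from 0.30 to 0.68 without KO 11. Adipoq encodes adiponectin, a hormone secreted by adipocytes (chromosome 16, 22965286 to 22976718, plus strand, GRCm39). It ran from 3.02 to 269.6 CPM with a median of 25.2 in the libraries labelled KO, and from 0.646 to 75.4 CPM with a median of 12.1 in those labelled WT. The lowest were KO 12 and WT 23 and the highest KO 11 and WT 16, and the ranges of the labels overlapped. Its log2 change was 1.22 ± 0.68 (SE, n = 12 each; adjusted p = 0.322 in edgeR), and 0.53 ± 0.61 without KO 11.

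Lep encodes leptin, the satiety hormone (chromosome 6, 29060220 to 29073875, plus strand). It ran from 0.193 to 34.6 CPM in the libraries labelled KO (median 4.18) and from 0.108 to 10.6 CPM in those labelled WT (median 2.36). KO 8, with 100.5 CPM of Adipoq, had 4.53 CPM of Lep, less than the 11.1 CPM of KO 10, whose Adipoq was at 58.7 CPM. The log2 change of Lep was 0.90 ± 0.68 (adjusted p = 0.473 in edgeR), and 0.30 ± 0.64 without KO 11. Cfd, which encodes the complement protease adipsin, had a median of 119 CPM in the libraries labelled KO and 67.2 CPM in those labelled WT. Retn, which encodes resistin, an adipocyte hormone in the mouse, had a median of 11.05 CPM under the label KO and 5.66 CPM under the label WT. Both had the order of extremes seen for Adipoq, with KO 12 and WT 23 lowest and KO 11 and WT 16 highest.

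**Figure D2:**
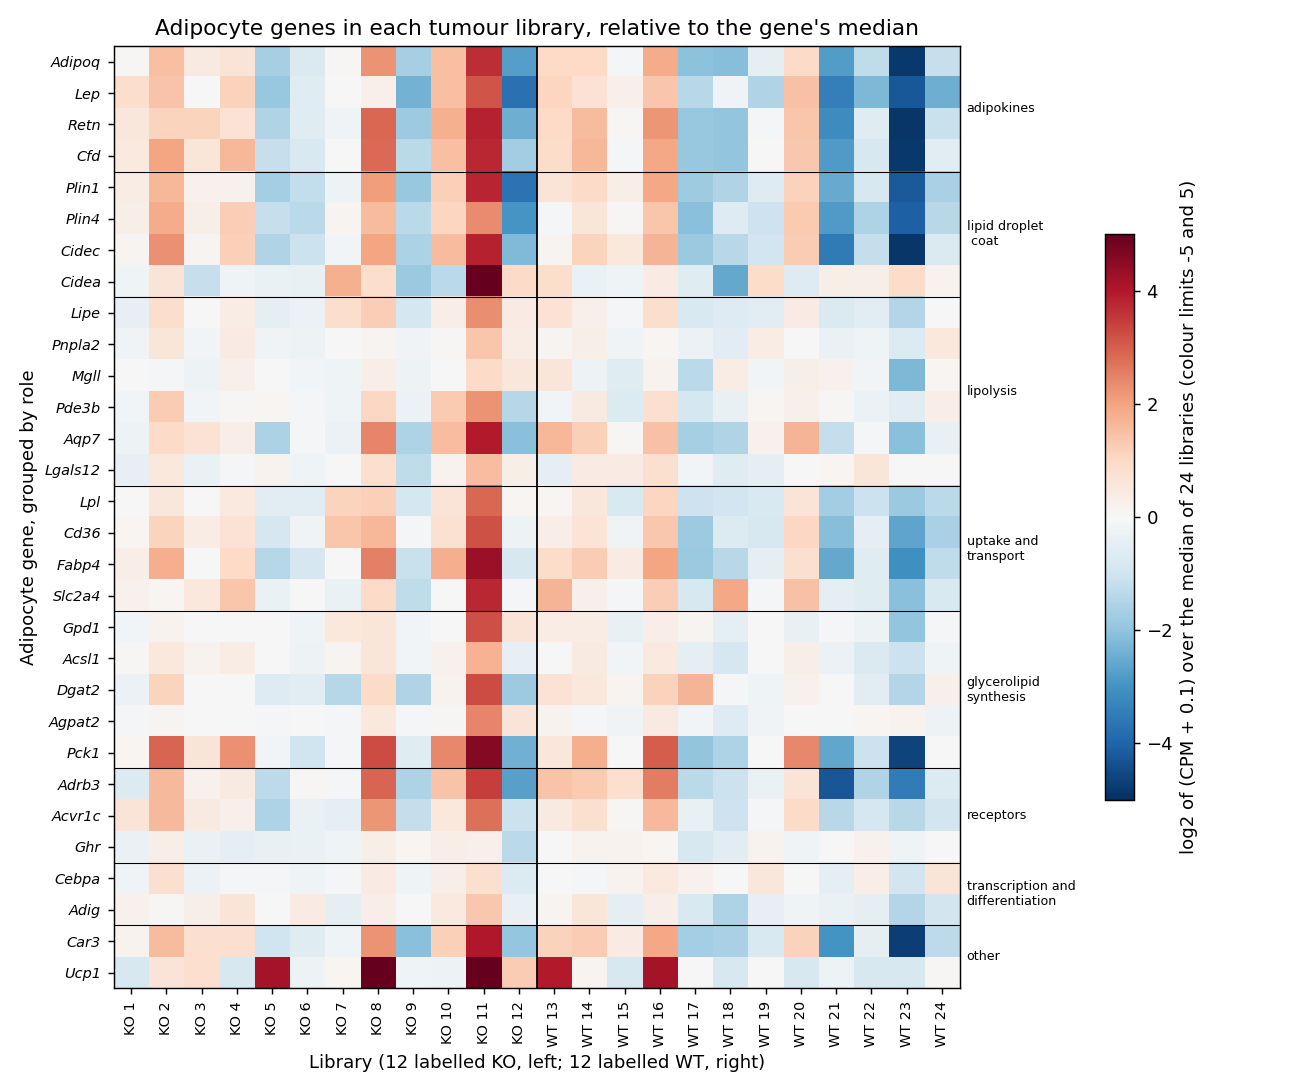
The 30 adipocyte genes, by role (rows), in each library (columns; 12 labelled KO left, 12 labelled WT right), as log2 of CPM plus 0.1 over the gene's median of 24 libraries. Most rows are reddest in KO 11 and bluest in WT 23, with KO 8 and WT 16 also high and KO 12 and WT 21 low; Cidea, Mgll, Agpat2, Lgals12 and Ghr do not follow that pattern as closely.

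The genes of the droplet coat comprised 3 that varied between libraries much as Adipoq did and 1 that did not. Plin1, which encodes the perilipin that gates access of lipases to the droplet (chromosome 7, 79370912 to 79382652, minus strand), ran from 0.451 to 97.0 CPM in the libraries labelled KO (median 8.09) and from 0.287 to 27.0 CPM in those labelled WT (median 4.21). Its extremes lay in the same 4 libraries as those of Adipoq, and its log2 change was 1.15 ± 0.69 (adjusted p = 0.364 in edgeR), and 0.33 ± 0.62 without KO 11. Plin4, a perilipin of nascent droplets, had a log2 change of 0.96 ± 0.57, and Cidec, which drives droplet fusion in white adipocytes, one of 1.39 ± 0.68, with adjusted p of 0.350 and 0.272 in edgeR. Without KO 11 the change of Plin4 was 0.68 ± 0.56 and that of Cidec 0.68 ± 0.62.

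Cidea, the relative of Cidec known from brown fat and from the milk-secreting epithelium of the mouse (chromosome 18, 67476634 to 67500864, plus strand), was the exception. It ran from 0.563 to 99.3 CPM in the libraries labelled KO, with a median of 1.95, and from 0.304 to 4.45 CPM in those labelled WT, with a median of 2.70. KO 11 alone held 76.6% of the summed CPM of the libraries labelled KO, and KO 7, the next, stood at 8.08 CPM. WT 23, the lowest library for most adipocyte genes, was the highest labelled WT for Cidea. The log2 change of 2.05 ± 0.73 (p = 0.00982, adjusted p = 0.164 in edgeR) became 0.084 ± 0.40 without KO 11. KO 7 also held the highest sum of 10 milk and milk fat genes, 69454 CPM, against 3787 to 22728 CPM in the libraries labelled WT, and the part of milk-secreting cells in the Cidea level was not tested.

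**Figure D3:**
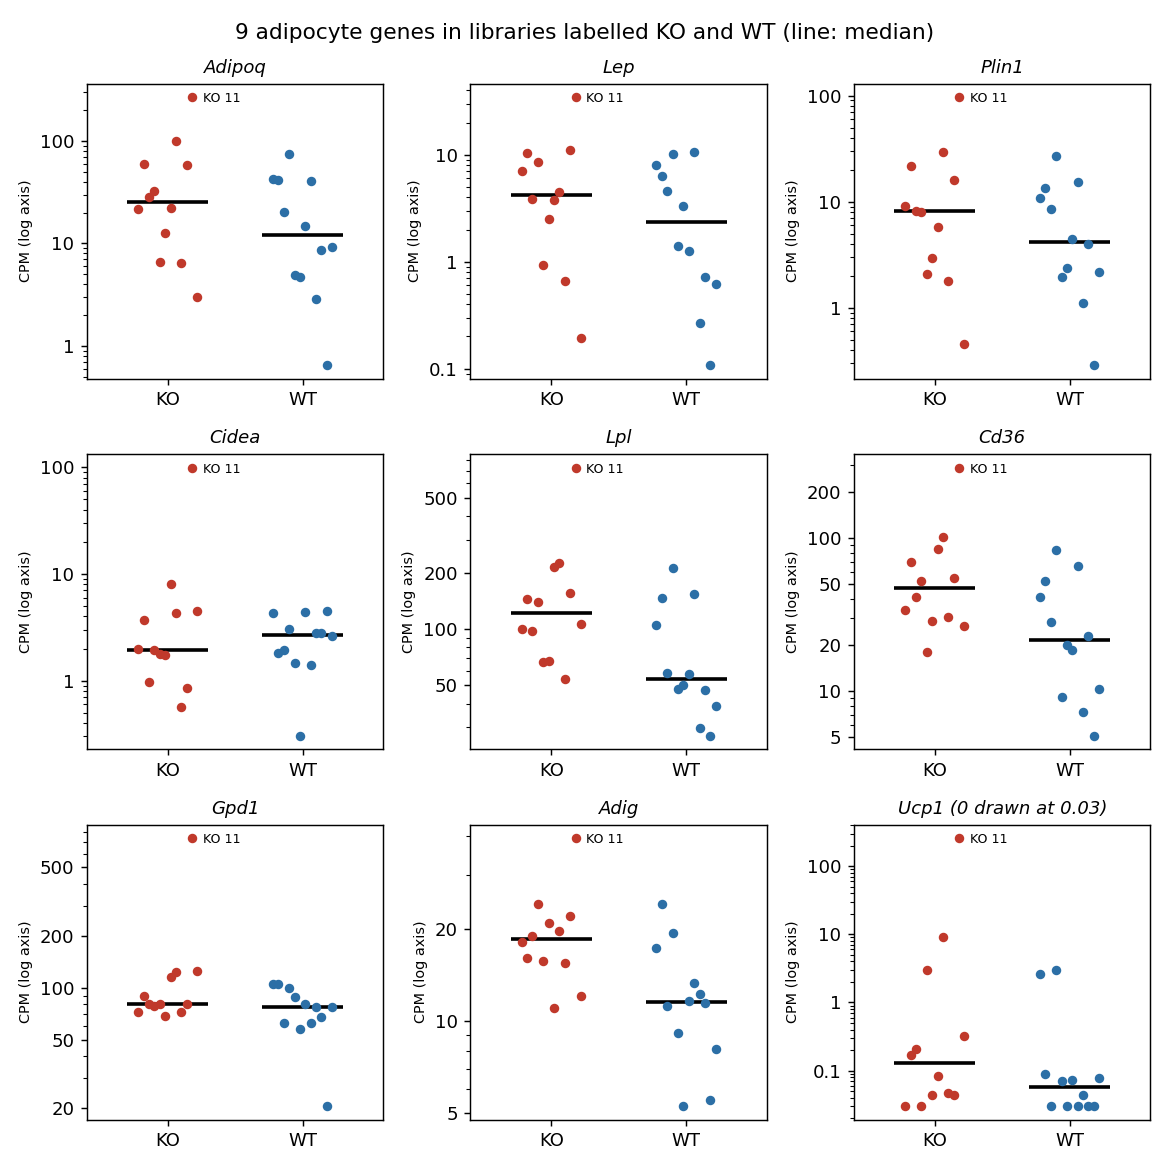
CPM (log axes) of 9 adipocyte genes in the 12 libraries labelled KO (red, left) and the 12 labelled WT (blue, right), 1 point per library, with the median as a line and KO 11 marked. In each panel KO 11 is the highest point and the remaining points of the 2 labels overlap; for Lpl all 12 libraries labelled KO lie at or above the median of 54.1 CPM of those labelled WT.

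Of the 6 lipolysis genes, 1, Lipe, had an unadjusted p under 0.05, a share near the 18.9% of all tested genes. The first enzyme of triglyceride breakdown, ATGL, is encoded by Pnpla2, which had a median of 137 CPM in the libraries labelled KO and 128 CPM in those labelled WT and a log2 change of 0.28 ± 0.17 (adjusted p = 0.373 in edgeR). Hormone-sensitive lipase, encoded by Lipe, had a log2 change of 0.71 ± 0.32 (p = 0.0350, adjusted p = 0.233 in edgeR), and 0.38 ± 0.26 without KO 11 (p = 0.159, adjusted p = 0.450 in edgeR). Of the 4409 exon bases of Lipe, 809 are shared with a transcript on the other strand, and the recorded counting names no strand option. Whether reads in those bases were counted for Lipe or left out cannot be seen from counts per gene. Mgll, which encodes the lipase of the last step, had a log2 change of 0.23 ± 0.22, and Pde3b, the phosphodiesterase through which insulin restrains lipolysis, one of 0.63 ± 0.31. Lgals12, a galectin of the droplet surface, had one of 0.16 ± 0.23, and the glycerol channel gene Aqp7 one of 1.09 ± 0.73 in the extended fit. The adjusted p of these 4 ran from 0.273 to 0.724 in edgeR. Without KO 11 the change was 0.13 ± 0.22 for Mgll, 0.33 ± 0.26 for Pde3b, -0.04 ± 0.20 for Lgals12 and 0.16 ± 0.65 for Aqp7, and that of Pnpla2 was 0.12 ± 0.13. Aqp7 was the sparsest of the 6, with a median of 0.373 CPM under the label KO and 0.331 CPM under the label WT, and had no read in KO 12 and in WT 23.

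Of the 4 uptake genes, 3 had an unadjusted p under 0.05, against 18.9% of all tested genes, and 0 without KO 11, against 17.2%. Lpl encodes lipoprotein lipase, which frees fatty acids from circulating lipoproteins (chromosome 8, 69333207 to 69359584, plus strand). It ran from 54.2 to 727 CPM in the libraries labelled KO, with a median of 123, and from 27.0 to 211 CPM in those labelled WT, with a median of 54.1. All 12 libraries labelled KO lay above the median of those labelled WT, and 3 lay above the highest of those. Its log2 change was 1.11 ± 0.41 (p = 0.0128, adjusted p = 0.177 in edgeR), and 0.62 ± 0.33 without KO 11. Cd36, the fatty acid translocase gene (chromosome 5, 17986688 to 18093957, minus strand), ran from 18.1 to 290.2 CPM with a median of 47.1 in the libraries labelled KO, and from 5.13 to 83.3 CPM with a median of 21.6 in those labelled WT. It lay above the WT median in 11 of the 12 libraries labelled KO. Its log2 change was 1.20 ± 0.47 (p = 0.0180, adjusted p = 0.194 in edgeR), and 0.70 ± 0.41 without KO 11. Lpl and Cd36 are also expressed by macrophages, and Cd36 by endothelial cells. The sum of 10 macrophage markers ran from 507 to 1290 CPM (median 812) in the libraries labelled KO and from 403 to 936 CPM (median 649) in those labelled WT, and that of 10 endothelial markers from 77.5 to 205 CPM (median 108) under the label KO and from 74.8 to 172 CPM (median 117) under the label WT. Their part in the levels of Lpl and Cd36 was not tested.

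Fabp4, which encodes the fatty acid carrier of the adipocyte cytosol, had medians of 67.4 CPM in the libraries labelled KO and 40.8 CPM in those labelled WT, and its log2 change was 1.50 ± 0.66 (p = 0.0317, adjusted p = 0.225 in edgeR), and 0.63 ± 0.56 without KO 11. Slc2a4 encodes GLUT4, the insulin-dependent glucose carrier of fat and muscle. KO 11 held 51.3% of its summed CPM in the libraries labelled KO, and its log2 change of 0.58 ± 0.53 (adjusted p = 0.555 in edgeR) was -0.33 ± 0.39 without that library.

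Of the 5 genes of glycerolipid synthesis, 3 had an unadjusted p under 0.05, as did 18.9% of all tested genes, and without KO 11 0 of the 5 had (17.2% of all tested genes). Gpd1 makes the glycerol 3-phosphate backbone of triglyceride (chromosome 15, 99615468 to 99622895, plus strand). Its level ran from 68.8 to 742 CPM in the libraries labelled KO (median 80.9) and from 20.5 to 105 CPM in those labelled WT (median 77.5). The medians lay close together, the second highest library labelled KO stood at 125 CPM, and the log2 change of 0.94 ± 0.36 (p = 0.0160, adjusted p = 0.188 in edgeR) became 0.26 ± 0.18 without KO 11. Of its 2798 exon bases, 384 are shared with a transcript on the other strand. Acsl1, which activates fatty acids to acyl-CoA, had a log2 change of 0.51 ± 0.21, and Agpat2, which adds the second acyl chain and whose loss causes lipodystrophy, one of 0.56 ± 0.25, with adjusted p of 0.209 and 0.238 in edgeR. Without KO 11 the change of Acsl1 was 0.29 ± 0.16 and that of Agpat2 0.14 ± 0.11. Pck1, which feeds glyceroneogenesis in fat, was among the most variable genes, from 1.03 to 144 CPM in the libraries labelled KO and from 0.144 to 49.1 CPM in those labelled WT, with a log2 change of 1.33 ± 0.77 (adjusted p = 0.343 in edgeR), and of 0.67 ± 0.73 without KO 11.

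Dgat2 adds the last acyl chain of triglyceride. Its median was lower in the libraries labelled KO, 15.3 CPM, than in those labelled WT, 19.5 CPM, and 3 of the 12 libraries labelled KO lay above that WT median. The log2 change of 0.33 ± 0.49 (adjusted p = 0.726 in edgeR) was -0.50 ± 0.35 without KO 11 and -0.49 in DESeq2 with all libraries. DESeq2 was run at its defaults, under which outlying counts can be replaced. Its value may therefore not be independent of the one without KO 11.

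Among the receptors, Adrb3, the beta-3 adrenergic receptor through which catecholamines start lipolysis, had a log2 change of 0.85 ± 0.73, and Acvr1c, the activin receptor ALK7 that restrains lipolysis in mouse fat, one of 0.84 ± 0.50, with adjusted p of 0.526 and 0.352 in edgeR. Without KO 11 the change of Adrb3 was 0.32 ± 0.70 and that of Acvr1c 0.44 ± 0.46. Both were low: Adrb3 had a median of 1.995 CPM in the libraries labelled KO and 1.24 CPM in those labelled WT, and Acvr1c of 1.54 CPM under the label KO and 1.02 CPM under the label WT. Ghr, the growth hormone receptor gene, had a median of 90.5 CPM under the label KO and 109 CPM under the label WT and a log2 change of -0.07 ± 0.15 (adjusted p = 0.835 in edgeR). Cebpa, the factor that completes adipocyte differentiation, had a median of 88.8 CPM under the label KO and 102 CPM under the label WT and a log2 change of -0.03 ± 0.17 (adjusted p = 0.944 in edgeR). The ranges of both genes within a label spanned less than those of the droplet and hormone genes.

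Adig encodes adipogenin, a small membrane protein of differentiating adipocytes (chromosome 2, 158344532 to 158350118, plus strand). It ran from 11.1 to 39.5 CPM with a median of 18.6 in the libraries labelled KO, and from 5.28 to 24.1 CPM with a median of 11.5 in those labelled WT. Of the 12 libraries labelled KO, 11 lay above the WT median and 2 above the WT maximum. Its log2 change of 0.66 ± 0.23 had the smallest p of the 28 tested genes (p = 0.00790, adjusted p = 0.154 in edgeR), and was 0.51 ± 0.21 without KO 11 (p = 0.0226, adjusted p = 0.235 in edgeR). Over the fits that left out 1 library each, its lowest adjusted p was 0.0897 and its change ran from 0.51 to 0.78. In the authors' deposited table it was also the adipocyte gene with the lowest adjusted p, 0.159.

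Car3, a carbonic anhydrase abundant in white fat and slow muscle, had medians of 145 CPM in the libraries labelled KO and 65.4 CPM in those labelled WT, with a log2 change of 1.20 ± 0.68 (adjusted p = 0.336 in edgeR), and of 0.37 ± 0.59 without KO 11. Ucp1, the thermogenic uncoupling protein of brown and beige fat (chromosome 8, 84016977 to 84025085, plus strand), was close to absent in most tumours. Its median was 0.127 CPM in the libraries labelled KO and 0.0581 CPM in those labelled WT, under the level of 3 reads in most libraries, with no read in 2 libraries labelled KO and 5 labelled WT. It reached 258.9 CPM in KO 11, 9.06 in KO 8 and 2.98 in KO 5, against 3.03 in WT 16 and 2.62 in WT 13. KO 11 held 95.2% of the summed CPM of the libraries labelled KO. The log2 change in the extended fit, 5.49 ± 1.58 (p = 0.00193, adjusted p = 0.107 in edgeR), was 1.25 ± 1.10 without that library (p = 0.267).

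Set per kilobase of exon (RPKM, the CPM over the exon length), the order of levels in the libraries labelled WT was led by Cfd at a median of 72.9 RPKM, Pnpla2 at 47.0, Fabp4 at 45.7, Car3 at 42.5 and Cebpa at 38.6. Gpd1, Ghr and Agpat2 followed at 27.7, 24.1 and 23.6 RPKM. These neighbours lay within each other's range over libraries. At the other end stood Adrb3 at 0.355, Acvr1c at 0.102, Aqp7 at 0.101 and Ucp1 at 0.0353 RPKM. In the libraries labelled KO, Cfd was again first at 129 RPKM, followed by Car3 at 94.3 and Fabp4 at 75.6 RPKM, and Pnpla2 stood at 50.3 RPKM. Of the 30 genes, 25 had a median of at least 1 RPKM in the libraries labelled WT.

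The spread between tumours of the same label was much larger for these genes than for a typical gene. The SD of log2 CPM within the libraries labelled KO had a median of 1.32 over the 28 tested adipocyte genes, against 0.36 over all tested genes. Within those labelled WT it was 0.99 over the adipocyte genes, against 0.31 over all tested genes. Above the 95th percentile of all tested genes lay 15 of the 28 in the libraries labelled KO, 13 in those labelled WT and 12 in both. Pck1 had the widest spread among the tested genes of the list, with an SD of 2.07 in the libraries labelled KO, against 2.22 in those labelled WT. The narrowest was Mgll under the label KO, at 0.37, and Agpat2 under the label WT, at 0.28. Ghr had an SD of 0.48 under the label KO and 0.32 under the label WT, and Cebpa of 0.45 under the label KO and 0.44 under the label WT.

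The adipocyte genes varied together from tumour to tumour. Spearman's rho with Adipoq over 24 libraries was computed for the 29 other members within a family of 15819 genes, with a two-sided permutation test of 100000 resamples and Benjamini-Hochberg adjustment over all of them. Of 27 tested members, 22 passed an adjusted p of 0.05, all of them with a positive rho, where 10.4% of all tested genes passed and 6.12% passed with a positive rho. Among the 100 genes most like Adipoq, 15 were members. These values share the library and its depth, and the list was assembled with earlier results of these data known, so the count describes the genes and does not set them apart from others. Some markers of other lists also followed Adipoq. Over the 6 fibroblast markers rho ran from 0.543 for Pdgfrb (adjusted p = 0.0606 by permutation) to 0.887 for Lum (adjusted p = 0.000936 by permutation, rank 51). Over the 6 T cell markers it ran from 0.405 for Cd4 (adjusted p = 0.197 by permutation) to 0.806 for Cd3g (adjusted p = 0.000936 by permutation).

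The closest were Cfd (rho = 0.983, Pearson's r = 0.986), Car3 (rho = 0.979, r = 0.984), Retn (rho = 0.973, r = 0.989), Plin1 (rho = 0.969, r = 0.979) and Cidec (rho = 0.968, r = 0.975). Each of these 5 had a permutation p of 1e-05 for both measures, the smallest that the resamples can give, with an adjusted p of 0.000936 for rho and 0.000553 for r. Without WT 23 and KO 11, the 2 libraries farthest from the median of Adipoq, their r lay at 0.977 for Cfd, 0.973 for Car3, 0.982 for Retn, 0.969 for Plin1 and 0.957 for Cidec. Within a label, Cfd had a rho of 0.986 in the libraries labelled KO, against 0.972 in those labelled WT, and Plin1 of 0.951 in the libraries labelled KO, against 0.937 in those labelled WT.

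**Figure D4:**
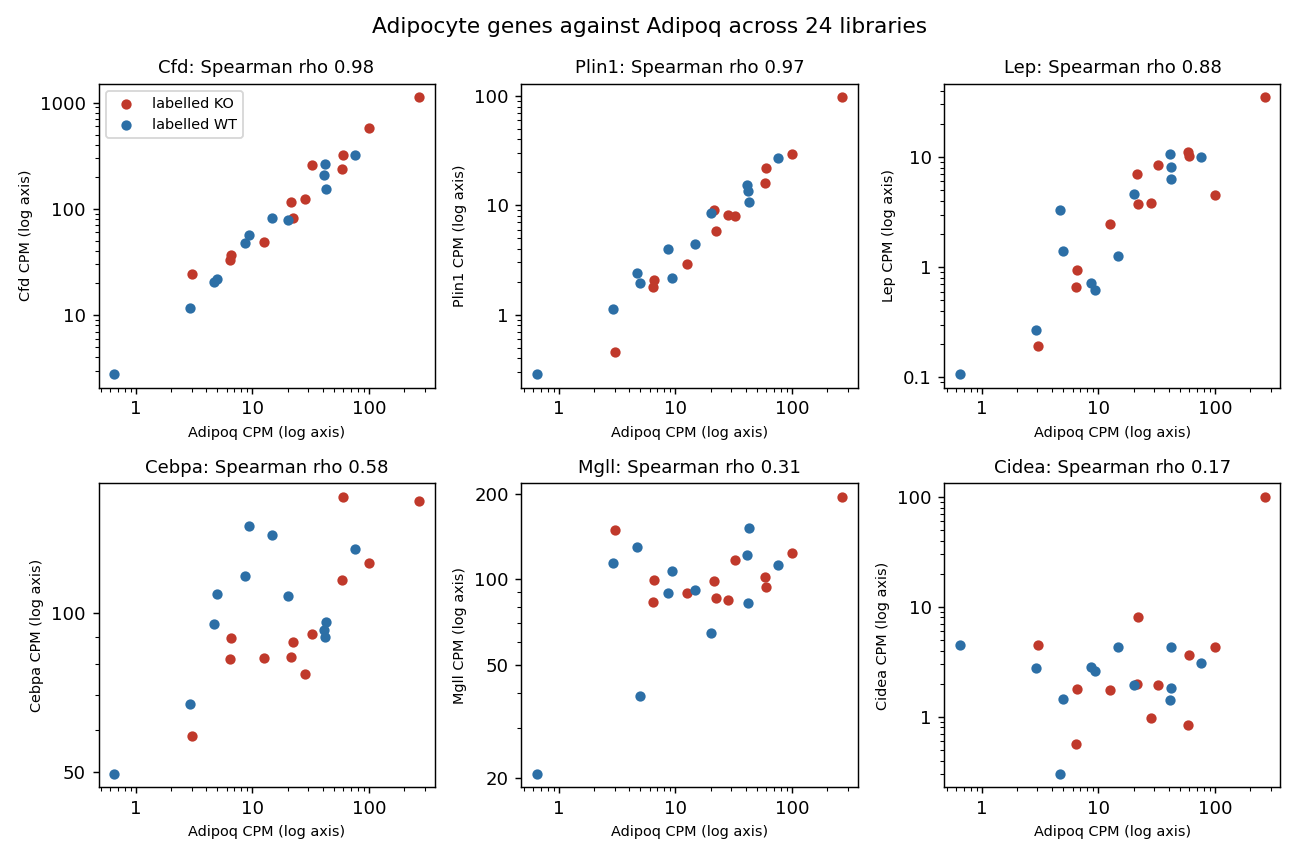
CPM of 6 adipocyte genes against CPM of Adipoq (both axes log) in 24 libraries, labelled KO in red and labelled WT in blue, 1 point per library. Cfd and Plin1 lie along a line over the whole range (rho = 0.983 and 0.969), Lep is more scattered (0.882), and Cebpa (0.577), Mgll (0.315) and Cidea (0.170) are more scattered still.

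Cidea followed Adipoq least, with rho = 0.170 (permutation p = 0.424, adjusted p = 0.661) and r = 0.360 (permutation p = 0.0841, adjusted p = 0.222), and r = 0.212 without the 2 extreme libraries. Mgll stood at rho = 0.315 (adjusted p = 0.347 by permutation) and r = 0.563 (adjusted p = 0.0347 by permutation), where r was 0.148 without those 2 libraries, so that its linear relation rested on them. Agpat2 and Lgals12 had a rho of 0.404 and 0.430 and an r of 0.477 and 0.493, with adjusted permutation p of 0.199 and 0.165 for rho and 0.0959 and 0.073 for r. Without the 2 libraries their r was 0.345 and 0.384. Ucp1, outside the family of tested genes, had rho = 0.462 and r = 0.551, and r = 0.346 without the 2 libraries. Gpd1 had rho = 0.537 (adjusted p = 0.0624 by permutation) and r = 0.663 (adjusted p = 0.00779 by permutation), and r = 0.283 without them, so this relation also rested on WT 23 and KO 11.

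Cebpa passed with rho = 0.577 (adjusted p = 0.0418 by permutation) and r = 0.674 (adjusted p = 0.00623 by permutation), and r = 0.475 without the 2 libraries. Its rho was 0.832 in the libraries labelled KO, against 0.329 in those labelled WT, a difference that was not tested. Ghr was just inside the threshold, with rho = 0.565 (adjusted p = 0.0490 by permutation) and r = 0.517 (adjusted p = 0.0557 by permutation), and r = 0.557 without the 2 libraries. Within the libraries labelled KO, 14 of 27 members passed (0.929% of all genes), and within those labelled WT 15 did (3.88% of all genes). Without the 2 extreme libraries 16 passed (3.55% of all genes), and without KO 11 alone 20 passed (6.20% of all genes).

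Outside the list, the 10 genes with a mean of at least 1 CPM and the highest rho with Adipoq were Mrap, B3galt2, Slc36a2, A530016L24Rik, Abcd2, Trarg1, Amy1, Slc7a10, Serpina3c and Ces1f. Their rho ran from 0.977 for Mrap, the accessory protein of the melanocortin 2 receptor, to 0.945 for Ces1f, a carboxylesterase. Trarg1, a regulator of GLUT4 traffic, had rho = 0.964, and Slc7a10, an amino acid carrier, rho = 0.954. Over these 10 genes r ran from 0.939 to 0.971, and from 0.932 to 0.980 without WT 23 and KO 11, with a permutation p of 1e-05 for each rho and r. Amy1 belongs to the amylase gene family, and reads that also place on a related gene may be lost in counting. The opposite end of the order held Fstl4 with rho = -0.857, Bsg, which encodes basigin, with rho = -0.850, Raly with -0.824, Mif with -0.82 and Dhx37 with -0.819. Their r ran from -0.859 to -0.694, and from -0.767 to -0.661 without the 2 libraries, and the adjusted permutation p of each rho was 0.000936 or 0.00141.

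The promoters of Adipoq, Lep and Cebpa are shown because C/EBP alpha, the product of Cebpa, is known to bind at Adipoq and Lep. RefSeq's promoter table of build GRCm38.p6, an earlier build than the GRCm39 of the counts, held 27 promoters of 20 of the 30 genes, each from 250 bases before to 50 after the start site. Capitals mark motifs found by a search of both strands: CCAAT (or ATTGG on the other strand) in Adipoq (chr16:23146286-23146585, plus strand), the C/EBP palindrome TTGCGCAA in Lep (chr6:29059971-29060270, plus strand) and TATAAA in Cebpa (chr7:35119043-35119342, plus strand).
Adipoq: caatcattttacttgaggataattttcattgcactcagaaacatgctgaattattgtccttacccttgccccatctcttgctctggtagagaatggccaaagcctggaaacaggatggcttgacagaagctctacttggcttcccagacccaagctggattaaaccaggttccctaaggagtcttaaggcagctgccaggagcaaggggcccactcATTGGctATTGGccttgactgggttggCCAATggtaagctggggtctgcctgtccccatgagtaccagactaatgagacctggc
Lep: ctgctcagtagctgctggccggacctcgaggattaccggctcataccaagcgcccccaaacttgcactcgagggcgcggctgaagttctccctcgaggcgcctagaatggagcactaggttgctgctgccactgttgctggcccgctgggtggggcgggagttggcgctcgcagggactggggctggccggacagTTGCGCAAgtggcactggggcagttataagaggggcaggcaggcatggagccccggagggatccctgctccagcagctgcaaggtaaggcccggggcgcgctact
Cebpa: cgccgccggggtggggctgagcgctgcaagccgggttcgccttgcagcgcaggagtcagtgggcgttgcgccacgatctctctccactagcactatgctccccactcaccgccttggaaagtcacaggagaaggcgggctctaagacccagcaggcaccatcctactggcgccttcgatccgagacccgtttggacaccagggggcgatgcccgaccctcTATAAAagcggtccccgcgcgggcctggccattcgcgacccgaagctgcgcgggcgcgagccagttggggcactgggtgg

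Adipoq held 3 copies of CCAAT, whose first bases lie at -34, -27 and -7 from the start site, the nearest on the strand of the gene. CCAAT was searched apart from the C/EBP palindrome and is not marked as a site of C/EBP alpha. TTGCGCAA began at -55 in Lep, and no other member promoter in the table held it. Among all 32851 promoters of that table it was found in 60 (0.183%), CCAAT in 37.4% and TATAAA in 13.6%. CCAAT was found in 7 of the 27 member promoters, of 6 genes, and TATAAA in 2. The hexamer of nuclear receptors, AGGTCA, was found in 5 member promoters of 4 genes and in 16.3% of all promoters. Its direct repeat AGGTCANAGGTCA, of which AGGTCA is a part, was in none of the member promoters and in 0.0396% of all. A match of letters is not a binding site, and none of these counts was set against the levels of the genes.

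A further list of 40 genes of the adipocyte program, among them transcription factors, fatty acid synthesis enzymes and adipokine-like proteins, was examined in the same fit. None of the 40 passed an adjusted p of 0.05 in edgeR, 15 were higher and 1 lower at an unadjusted p under 0.05 (18.9% of all tested genes), and the median log2 change was 0.39. Without KO 11, 8 were higher and 1 lower at that level (17.2% of all tested genes), and the median was 0.22. DESeq2 called 1 of them, Pdk4, where it called 2.64% of all tested genes. Pdk4 encodes a kinase that spares glucose by shutting pyruvate dehydrogenase, and its log2 change there was 2.11 ± 0.64 (adjusted p = 0.0435 in DESeq2). In edgeR the log2 change of Pdk4 was 2.10 ± 0.68 (adjusted p = 0.138), with medians of 3.47 CPM in the libraries labelled KO and 1.78 CPM in those labelled WT and 67.8 CPM in KO 11, and without that library the change was 1.38 ± 0.59. Dgat1, which shares the last step of triglyceride synthesis with Dgat2, had a log2 change of 0.37 ± 0.12, Abhd5, the coactivator of ATGL, one of 0.44 ± 0.15, and G0s2, an inhibitor of ATGL, one of 0.69 ± 0.23. Their adjusted p in edgeR ran from 0.130 to 0.145. Abhd5 had a median of 249 CPM under the label KO and 188 CPM under the label WT and was not at its highest in KO 11. Pparg, the master regulator of adipocyte differentiation, had a median of 5.63 CPM under the label KO and 4.15 CPM under the label WT and a log2 change of 0.81 ± 0.39 (adjusted p = 0.254 in edgeR), and of 0.37 ± 0.31 without KO 11. Its rho with Adipoq was 0.732 (adjusted p = 0.00350 by permutation) and its r 0.844 (adjusted p = 0.000553 by permutation), and r was 0.717 without WT 23 and KO 11.

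Of 15 brown fat markers, 2 of which are members, 10 were tested and 0 called, with 2 higher at an unadjusted p under 0.05, a share near the 18.9% of all tested genes. These were Cidea and Kcnk3, a potassium channel of thermogenic fat, with a log2 change of 2.14 ± 0.83 (adjusted p = 0.189 in edgeR) and a level of 22.3 CPM in KO 11, against a highest value of 1.76 CPM in the libraries labelled WT. Without KO 11 none of the 10 had an unadjusted p under 0.05, and the change of Kcnk3 was 0.24 ± 0.57. Elovl3, a fatty acid elongase of brown fat, reached 24.8 CPM in KO 11, and its median was 0.065 CPM in the libraries labelled KO, against 0 in those labelled WT. Cox8b, a muscle and brown fat subunit of cytochrome oxidase, stood at 64.0 CPM in KO 11, against at most 8.30 CPM in the libraries labelled WT. The log2 change of Cox8b was 1.17 ± 0.64 (adjusted p = 0.318 in edgeR), and -0.18 ± 0.44 without KO 11. Elovl3 and Cox8b were named after their values were seen, and Cpt1b of the same list, at most 0.111 CPM in any library, was at 0 CPM in KO 11. Dio2, which activates thyroid hormone, had a log2 change of 0.44 ± 0.22 and Otop1 one of 0.95 ± 0.51, with adjusted p of 0.277 and 0.306 in edgeR, and without KO 11 these changes were 0.27 ± 0.19 and 0.15 ± 0.38. Prdm16, the factor that sets brown and beige fate, had a log2 change of -0.35 ± 0.57 (adjusted p = 0.758 in edgeR) and at 6.87 CPM in KO 11 was below its median of 8.52 CPM in the libraries labelled KO.

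Of 10 markers of adipocyte progenitors, 9 were tested and 0 called (0.316% of all tested genes). At an unadjusted p under 0.05, 1 was higher, Pparg, and 1 lower, Zfp423 (18.9% of all tested genes). Without KO 11, 0 were higher and 1 lower (17.2% of all tested genes). Zfp423, a progenitor zinc finger factor, had a median of 7.63 CPM in the libraries labelled KO and 10.9 CPM in those labelled WT, with a WT maximum of 41.6 CPM. The log2 change of Zfp423 was -0.73 ± 0.31 (p = 0.0257, adjusted p = 0.213 in edgeR), and -0.78 ± 0.32 without KO 11 (p = 0.0234, adjusted p = 0.238 in edgeR). The log2 change of Icam1 was -0.37 ± 0.23 and that of Pi16 0.46 ± 0.31, and without KO 11 they were -0.45 ± 0.23 and 0.18 ± 0.26. Pdgfra, the receptor that marks these cells, had one of 0.07 ± 0.22 (adjusted p = 0.888 in edgeR), or -0.03 ± 0.22 without KO 11, and with Adipoq a rho of 0.786 (adjusted p = 0.00217 by permutation) and an r of 0.661 (adjusted p = 0.00763 by permutation), or 0.711 without WT 23 and KO 11.

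Markers of other tissues were high in some of the same libraries. The 16 skeletal muscle markers summed to 7856 CPM in KO 11, 1698 CPM in KO 3 and 1569 CPM in KO 8, against at most 770 CPM in the libraries labelled WT, reached in WT 16. In KO 3 the adipocyte sum was 1300 CPM. Other libraries with high adipocyte sums held little muscle RNA: KO 2 (2363 CPM adipocyte, 141 CPM muscle), KO 10 (1968 and 28.6 CPM) and WT 14 (1867 and 28.6 CPM). With Adipoq, the rho of the 15 tested muscle markers ran from 0.267 to 0.438 (adjusted p from 0.154 to 0.444 by permutation). Myh4 and Acta1, fast myosin and skeletal actin, stood at 1493 and 1541 CPM in KO 11. Of the 15 tested muscle markers, 0 were called and 14 had a positive change with an unadjusted p under 0.05 (18.9% of all tested genes in either direction), with a median log2 change of 2.32. Without KO 11 this held for 1 (17.2% of all tested genes), with a median of 1.03. The 7 B cell markers summed to 231 CPM in KO 11, 113 CPM in KO 10 and 36.7 CPM in WT 24, and to at most 6.09 CPM in every other library. KO 8, the second richest in adipocyte RNA, and WT 16, the richest labelled WT, held 3.37 and 2.82 CPM of B cell markers. T cell markers summed to 81.4 CPM in KO 11 and 55.3 CPM in KO 10, against at most 15.7 CPM in the libraries labelled WT.

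**Figure D5:**
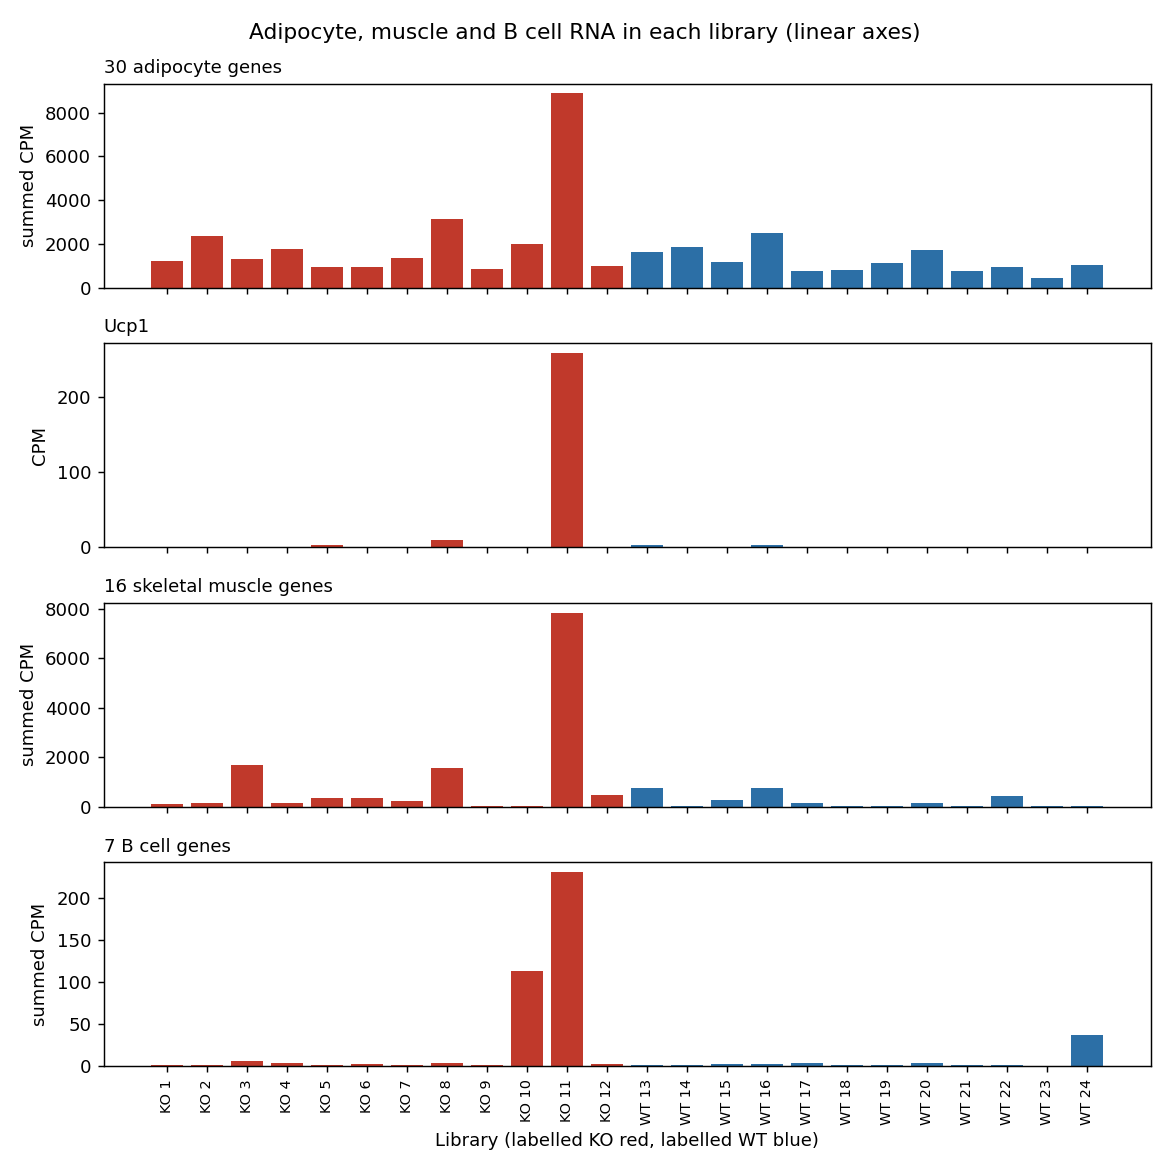
Summed CPM of the 30 adipocyte genes, CPM of Ucp1, and summed CPM of 16 skeletal muscle and 7 B cell markers in each library (linear axes from 0; labelled KO in red, labelled WT in blue). KO 11 is the highest bar in all 4 panels, at 8880, 258.9, 7856 and 231 CPM; KO 8 and WT 16 are high in adipocyte and muscle RNA, and KO 10 and WT 24 in B cell RNA.

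Luminal epithelium markers, led by Krt8 and Krt18, summed to between 4061 CPM, in KO 11, and 9893 CPM, in KO 12, in the libraries labelled KO, and to between 4302 and 7785 CPM in those labelled WT. Of the 3 libraries poorest in Adipoq, KO 12 held the highest such sum and WT 21 the highest among those labelled WT, while WT 23, the poorest, stood at 4832 CPM. Fibroblast markers, led by Col3a1 and Col1a2, summed to between 609 and 3589 CPM in the libraries labelled KO and between 858 and 3408 CPM in those labelled WT. Milk genes, led in mean CPM by Csn3 and Csn1s1, held 6 of 10 tested with a higher level at an unadjusted p under 0.05 in edgeR. Without KO 11 the count was again 6, where 18.9% and 17.2% of all tested genes passed with and without that library. Called were 2 of the 10 (0.316% of all tested genes), the casein gene Csn1s2a and the milk mucin gene Glycam1, named after their values were seen. Their log2 changes of 7.25 ± 1.55 and 9.42 ± 1.99 (adjusted p = 0.0381 and 0.0373 in edgeR) were 7.37 ± 1.54 and 9.53 ± 2.02 without KO 11 (adjusted p = 0.0513 and 0.0518 in edgeR). Without KO 7, where both were highest, the changes were 1.86 ± 0.63 and 4.16 ± 1.15 (adjusted p = 0.158 and 0.110 in edgeR). Skin and hair markers, led by Krt5 and Tchh, held 1 called gene of 4 tested (0.316% of all tested genes), Tchh, the trichohyalin of hair follicles. Its log2 change was 3.38 ± 0.73 (adjusted p = 0.0381 in edgeR), against 3.26 ± 0.74 without KO 11 (adjusted p = 0.0690 in edgeR). Without KO 12, where Tchh was highest, the change was 2.45 ± 0.60 (adjusted p = 0.0620 in edgeR). No gene of these lists was at 0 in every library. The part of these tissues in the adipocyte gene levels was not tested.

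At equal Adipoq the estimated changes lay nearer 0 for most of these genes. Adipoq is itself a member, and the median rho of the other tested members with it was 0.849. A move toward 0 was thus built into this fit, which kept KO 11. With the log2 CPM of Adipoq as a covariate, the median log2 change of the other 27 tested members was 0.097, with 16 positive and 11 negative. Of these, 0 passed an adjusted p of 0.05 in edgeR, while 97 of all 15819 tested genes did. Cd36 and Lpl had changes of 0.61 ± 0.20 and 0.58 ± 0.21 (adjusted p = 0.0985 and 0.120 in edgeR), and Adig one of 0.44 ± 0.15 (adjusted p = 0.113 in edgeR). On the negative side stood Dgat2 at -0.90 ± 0.40 and Plin1 at -0.32 ± 0.15, with adjusted p of 0.182 and 0.199 in edgeR.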

How the data were processed

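RNA of frozen, homogenised mammary tumours was sequenced in 24 libraries, 12 labelled KO and 12 labelled WT, made with a stranded mRNA kit per the labels' protocols. The deposited count files hold whole-number reads per gene, made by the authors with featureCounts 2.0.0 on a RefSeq annotation of GRCm39, per the file headers, which record no strand option and no counting of multiply placed reads. STAR and Subread are named in the submitters' processing notes, with no version. A deposited table of the authors' own comparison holds log2 values (fold change and CPM), scores (F and a signed fold) and p-values, raw and adjusted.

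Of 46318 gene IDs, 33552 had a read. Symbols came from the authors' deposited table for 13972 IDs and from a RefSeq gene table for another 30790, and 1556 had none. Of the 30 adipocyte genes, 28 were matched by the authors' table and Aqp7 and Ucp1 by NCBI gene ID. Coordinates are those of the count files. Among 132 pairs of libraries within a label, chi-square per degree of freedom was at least 23.3, more than sampling noise gives. No batch is labelled, and the KO and WT numbers do not overlap, so an order of processing and the label cannot be told apart.

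Genes passing filterByExpr were TMM-scaled and tested with edgeR 4.0.16 in R 4.3.3 (quasi-likelihood, two-sided, Benjamini-Hochberg threshold 0.05). CPM values use TMM-scaled totals. Correlations used log2 CPM with a prior count of 2. Spreads are SDs over 12 libraries, and 3 reads were taken as the floor of counting. In a simulation of the KO versus WT comparison (15820 genes, 50 altered at each size), the fit found 48% of 1.5-fold differences, 70% of 2-fold, 94% of 4-fold and 100% of 8-fold, and made 7 false calls. The altered genes were drawn from all tested genes, whose median SD of log2 CPM was 0.36 (KO) and 0.31 (WT). That of the tested adipocyte genes was 1.32 (KO) and 0.99 (WT), so these shares do not hold for them. Also tried were scaling by RLE or the upper quartile, tests by DESeq2 1.42.0 and by voom with sample weights (limma 3.58.1), robust dispersion, no filter, a filter of 1 CPM in 12 libraries, Adipoq as a covariate, other thresholds, and leaving out libraries.

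The adipocyte genes, the further lists and the named genes were chosen with earlier results of these data known. Values by library are given for the 6 genes of smallest p and for Adipoq, Plin1, Lep, Ucp1, Cd36 and Lpl. Further named were the 5 members most and least like Adipoq, the 10 most and 5 least like genes outside the list with a mean of at least 1 CPM, up to 4 genes of smallest p with Pparg, Prdm16 and Pdgfra in the further adipocyte, brown fat and progenitor lists, and up to 2 genes of highest mean in each other list.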

Additional observations from a re-analysis of the deposited data

How the results depend on the processing

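None of the 30 adipocyte genes passed an adjusted p of 0.05 under any alternative, and of 985 values of single genes under alternatives 959 had the direction of the main fit and 26 did not. Of the alternatives, 24 left out a single library and 9 were of other kinds. The former share nearly all their data with the main fit, so that count of 959 was largely built in. At an unadjusted p under 0.05, 9 of the 28 tested members, Ucp1 in the extended fit and 16 of the further adipocyte genes were counted (18.9% of all tested genes). DESeq2 called 1 further gene, Pdk4, where it called 2.64% of all tested genes. The count of all genes called was 231 at an adjusted p under 0.1, 2992 at an unadjusted p under 0.05, 418 in DESeq2, 97 with Adipoq as a covariate and 31 without KO 11 and KO 12, and ran from 9 (without WT 18) to 72 when single libraries were left out. The members correlated with Adipoq numbered 14 in the libraries labelled KO alone, and between 20 and 23 without any single library. The median log2 change of the members ran from 0.33 (without KO 11) to 1.11 (without WT 16) over such fits, and was 0.43 without KO 11 and KO 12 and 0.50 in voom.

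With Adipoq as a covariate the log2 change turned negative for Lep (-0.21), Retn (-0.083), Plin1 (-0.32), Aqp7 (-0.64), Lgals12 (-0.078), Slc2a4 (-0.39), Dgat2 (-0.90), Adrb3 (-0.32), Acvr1c (-0.096) and Car3 (-0.0074). Without KO 11 and KO 12 it was negative for Cidea (-0.0057), Lgals12 (-0.071), Slc2a4 (-0.30) and Dgat2 (-0.41), in voom for Lgals12 (-0.0060) and Dgat2 (-0.28), and in DESeq2 for Dgat2 (-0.49). When single libraries were left out, the change of Cebpa ran from -0.11 to 0.026, of Dgat2 from -0.50 to 0.54, of Ghr from -0.12 to 0.0043, of Lgals12 from -0.042 to 0.24 and of Slc2a4 from -0.33 to 0.81. The negative values of Dgat2, Lgals12 and Slc2a4 came from leaving out KO 11, and the positive ones of Ghr from leaving out KO 12. The cause of the other changes of sign was not tested. Adipoq has no value with itself as a covariate. No paired analysis was possible because the libraries labelled KO and WT share no replicate numbers. The floor of 3 reads covers counting error only, and Ucp1 lay under 3 reads in most libraries. Aqp7 and Ucp1 have no value in DESeq2 and voom, which were run on the filtered genes only.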
